A study of Mus musculus with 15 samples.

Results

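Apolipoproteins are the protein components of the lipoprotein particles that carry lipids in blood, and most of them are made in the liver. The 10 genes described here are Apob, Apoa1, Apoa2, Apoa4, Apoa5, Apoc1, Apoc3, Apoe, Apoh and Apom, taken by gene symbol from the ribosome profiling counts by a rule that has no threshold on measured values. They have 14 RefSeq transcripts among the 28167 in the counts, and all 14 passed the minimum of a mean of 10 counts per library that 17299 transcripts passed. Libraries of ribosome-protected fragments came from whole liver of wild-type male C57BL/6N mice, 8 to 10 weeks old, with 2 mice at each of 7 circadian times (CT), every 4 h from CT0 to CT24. Before sampling, the mice lived for 2 weeks in 12 h of light (400 lx) and 12 h of dark and were then moved to constant darkness, which had lasted 24 h at the first sampling and went on until the last. Light history before that was the same for all 14 mice, and the hours in darkness grew with circadian time. Circadian time therefore counts hours of a free-running day in which CT0 is the start of the former light phase and CT12 that of the former dark phase. Each library gives raw read counts for the 5′UTR, the coding sequence (CDS) and the 3′UTR of every transcript, and the total count ran from 40593197 to 90458783.

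The liver secretes ApoB on very low density lipoproteins, which deliver triglyceride to other tissues, and ApoA1 on high density lipoproteins, which return cholesterol. Smaller apolipoproteins exchange between particles and set how fast lipoprotein lipase empties them and how cells take them up. Footprints count ribosomes on an mRNA, so a level below is the product of mRNA amount and ribosome loading, which cannot be told apart here without matched RNA. In whole liver, fewer cells of a type and less RNA per cell cannot be told apart either.

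Levels of a gene are given as counts scaled to a common library size (CPM, counts in 1e6) of all reads of the transcript, with library sizes scaled by TMM, a method that lets most transcripts set the scale. This matters because of the Mup genes, which code for abundant secreted liver proteins and have 21 transcripts here. They took 70.7% of the total count of CT12 replicate 2 but 42.1% of that of CT0 replicate 1. In CT20 replicate 2 the summed level of 9 pancreatic acinar markers was 3709 CPM, against a median of 7.53 CPM over the 14 libraries. Every count of CT16 replicate 2 that was above 0 was even (100%), where the other libraries had 45.7% to 50.0%. Whether its reads were counted in duplicate was not tested, and its total of 52332008 would then be too high. Summed hepatocyte markers (10 genes, Alb, Ttr and others) lay between 38998 and 54983 CPM in the 14 libraries, with none of the 10 at 0.

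Of the 10 genes, 6 lie in 2 clusters of the mouse genome (GRCm38.p6, NCBI annotation) and 4 lie alone. On chromosome 9, Apoa1 (chr9:46228630-46230469, plus strand), Apoc3 (chr9:46233050-46235299 for the transcript with most reads, minus strand), Apoa4 (chr9:46240844-46243458, plus strand) and Apoa5 (chr9:46268608-46271921, plus strand) stand side by side. Apoc1 (chr7:19689480-19692659) and Apoe (chr7:19696244-19699188) are neighbours on the minus strand of chromosome 7. Apoa2 is at chr1:171225054-171226379, Apoh at chr11:108395297-108414396 and Apob at chr12:7977677-8016839, all on the plus strand, and Apom is at chr17:35128997-35131801 on the minus strand. For 12 of the 14 transcripts the region lengths in the counts matched this annotation within 1 nt per exon. The exceptions were the 5′UTRs of Apoe (180 nt in the counts, 201 nt in the annotation) and Apom (29 and 78 nt), and for these the lengths of the counts were used.

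The annotated start of translation decides which reads count as 5′UTR, and Apoc3 has 3 different ones. They are shown here because the split of Apoc3 reads into 5′UTR and CDS differs between its transcripts. Each line runs 5′ to 3′ along the transcript from 15 nt before the start codon, which is in capitals, and was read from GRCm38.p6 with RefSeq transcript models. The line of NM_001289755 is chr9:46235241-46235270 and that of NM_001289833 is chr9:46234476-46234505, both on the minus strand. The line of NM_023114, whose start is also that of NM_001289756, crosses an exon junction. The starts of Apoa2 (chr1:171225300-171225329) and Apob (chr12:7977764-7977793), on the plus strand, follow for comparison.
Apoc3 NM_001289755: tagctactccaggtaATGcccctggggagg
Apoc3 NM_023114: aggtacgtaggtgccATGcagccccggacg
Apoc3 NM_001289833: tctgtacagggctacATGgaacaagcctcc
Apoa2 NM_013474: ccatagtctgccatcATGaagctgctcgca
Apob NM_009693: caccatccatccgccATGggcccacgaaag
The base 3 nt before the start codon, where mammalian starts most often have a purine, is A or G in 13 of the 14 transcripts and T in NM_001289833.

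An ATG upstream of the CDS can start a short upstream open reading frame (uORF), at which scanning ribosomes may leave footprints. Among the 12 transcripts with matching lengths, such ATGs occur in Apoa2 (1), Apoa4 (1) and the Apoc1 transcripts NM_007469 (3) and NM_001110009 (1). That of Apoa4 starts a uORF of 63 nt at position 193 of its 310-nt 5′UTR. The short uORFs of Apoa2 and Apoc1 are printed because these 2 genes are compared for their 5′UTR reads, with the upstream ATG in capitals. They lie at chr1:171225056-171225067 (plus strand) for Apoa2 and at chr7:19692615-19692638 and chr7:19692521-19692547 (minus strand) for Apoc1.
Apoa2 uORF at position 3 of the 5′UTR: ATGtgtatatag
Apoc1 uORF at position 22, both transcripts: ATGggcctcctgagagatccttag
Apoc1 uORF at position 113, NM_007469 only: ATGgtggagggcggtggtgaatactag
The third upstream ATG of NM_007469, at position 142, runs into the CDS in another frame. None was found in the 5′UTRs of Apoa1, Apoa5, Apob, Apoh and the 4 Apoc3 transcripts. The counts cover whole 5′UTRs, so reads on a uORF and beside it are not separated.

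Per length of CDS, the 10 genes ranged widely in ribosome density. CDS density is given as CDS reads per kilobase of CDS on the same scale (RPKM, TMM-scaled), as mean ± SD over 14 libraries that include change over the day. Apoa2, a main protein of high density lipoproteins, was densest with 11298 ± 1525, from 8700 to 14080 in single libraries, and ranked 16 among 11655 genes taken by their best-covered transcript. Apoe, the ligand by which remnant particles bind their receptors on liver cells, followed with 8241 ± 905 and rank 17. Apoa1, the chief protein of high density lipoproteins, had 3968 ± 294, and Apoc1, an inhibitor of lipoprotein lipase and remnant uptake, had 3904 ± 709. Apoc3, which also holds back triglyceride clearance, had 1728 ± 306 in its transcript with most reads, and means from 2296 to 2462 in its other transcripts. The mean of Apoh (beta-2-glycoprotein I, a phospholipid-binding plasma protein) was 747 ± 60.4. Apoa5, which promotes the action of lipoprotein lipase on triglyceride, came to 413.5 ± 89.7, and Apob, the scaffold of very low density lipoproteins, to 344 ± 35.9. Apom, a carrier of sphingosine 1-phosphate in high density lipoproteins, had 222 ± 25.2. Apoa4, which the small intestine also makes in quantity, was far below the rest with 21.5 ± 4.35 and rank 1572. Over all 11655 genes the median density was 2.42 RPKM, and the median of the 10 apolipoprotein means was 1237.

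**Figure D1:**
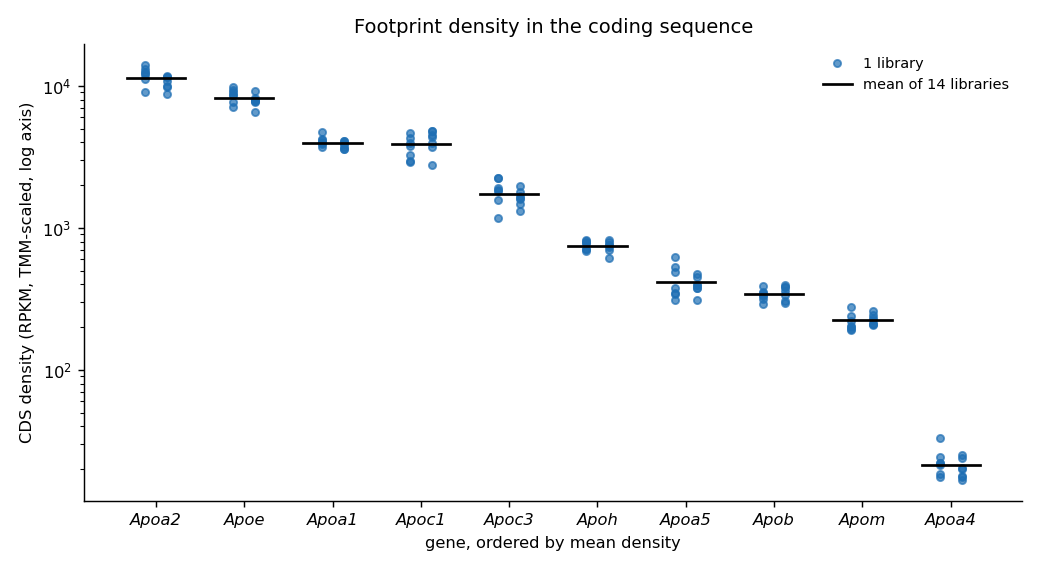
CDS density in RPKM (TMM-scaled, logarithmic axis) of the transcript with most reads of each gene, with 1 point per library (replicate 1 libraries on the left, replicate 2 on the right of each gene) and a bar at the mean of 14 libraries. Apoa2 lies above Apoe in every library, the points of Apoa1 and Apoc1 overlap, and Apoa4 lies apart at 16.7 to 33.2 RPKM.

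The order of densities held in all 14 libraries for 7 of the 9 pairs of neighbours. Apoa2 exceeded Apoe by 0.45 ± 0.16 on the log2 scale (mean ± SD, n = 14), from 0.18 to 0.71. Between Apoa1 and Apoc1 the mean difference was 0.04 ± 0.31, and Apoa1 was the denser in 7 of 14 libraries, so these 2 did not differ beyond their spread. Apoa5 was above Apob in 12 of 14 libraries, by 0.24 ± 0.31, which is also within the spread. The widest step was from Apom to Apoa4, 3.39 ± 0.37 on the log2 scale or 10.5-fold. Whole-transcript reads, which grow with length, gave another order. The CDS has 13547 nt in Apob, 939 nt in Apoe and 312 nt in Apoa2. By CPM, Apoe led with 8018 ± 848, and Apob was next with 4696 ± 488, ahead of Apoa2 with 3779 ± 542 and Apoa1 with 3180 ± 235 (SD, n = 14 libraries).

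Over the day, the cosine of a 24 h period passed the test in 1 of the 10 genes, Apoa5. The test was edgeR's quasi-likelihood F test with Benjamini-Hochberg adjustment over all 17299 transcripts, of which 11.3% were called at an adjusted p under 0.05, so 1 of 10 is near that background. At an unadjusted p under 0.05 the count was 3 of 10 (Apoa5, Apoa2 and Apoc3), against 24.4% of all transcripts. Peak-to-trough differences of the fitted cosine on log2 CPM had a median of 0.22 over the 10 genes, and of 0.31 over the 2978 well-counted transcripts, those that averaged 1000 counts or more. A test that asked for any difference among the 7 times, with no set shape, called 0 of the 10 (edgeR, 7.08% of all transcripts called). Its lowest adjusted p was 0.220 for Apoa5, and at an unadjusted p under 0.05 it gave 1 of 10, against 18.1% of all.

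Apoa5 was read highest from CT12 to CT20. Its CPM in replicates 1 and 2 were 344 and 443 at CT0, 385 and 417 at CT4, and 419 and 344 at CT8. They were 591 and 529 at CT12, 690 and 418 at CT16, 544 and 505 at CT20, and 378 and 439 at CT24. Of the 6 libraries from CT12 to CT20, 5 lay above all 8 libraries of the other times, and the sixth, CT16 replicate 2, lay among those 8. The fitted cosine peaked at 15.8 h (standard error 1.03 h) and swung from peak to trough by 0.61 ± 0.17 (standard error) on log2 CPM, or 1.53-fold, with an adjusted p of 0.0267 (edgeR). CT16 weighed on this call from both sides, with an adjusted p of 0.00344 without replicate 2 and 0.125 without replicate 1. Without CT20 replicate 2, the library with acinar markers, it was 0.0376. Over the 14 fits that leave out 1 library, the adjusted p was under 0.05 in 10, and the other losses came without CT12 replicate 1 (0.0518), CT12 replicate 2 (0.05004) and CT4 replicate 1 (0.0529). With each time left out in turn, the call held without CT16 (0.0268) and was lost without any of the other 6 times (0.0518 to 0.0976). In these 6 fits edgeR's peak-to-trough difference stayed between 0.57 and 0.75, against 0.63 with all times. The call was also lost with the total count as scale (edgeR, adjusted p = 0.139, difference 0.77). It was lost too by JTK_CYCLE, a rank test for rhythms that the study ran on its RPKM values. Here JTK_CYCLE gave an adjusted P of 0.126 with TMM and 0.0636 with the total count.

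**Figure D2:**
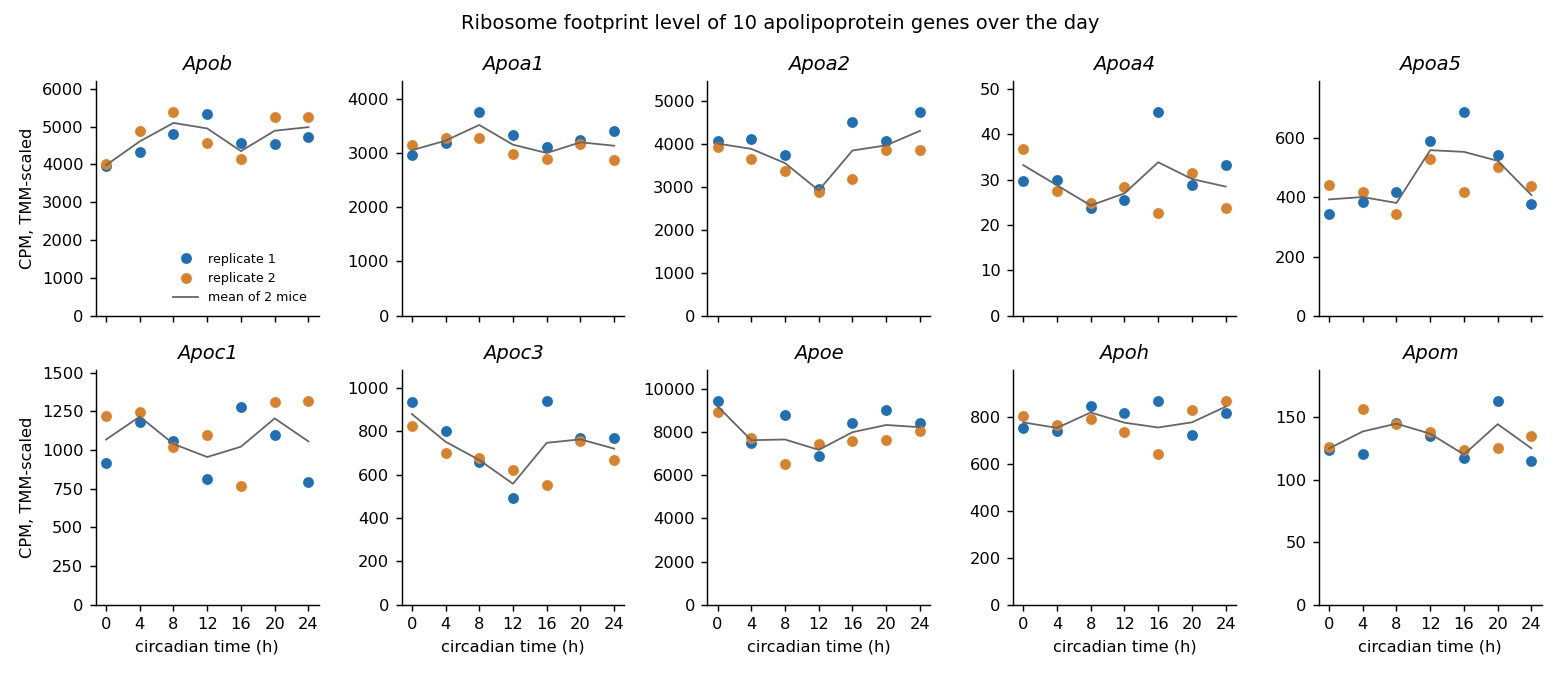
Ribosome footprint level (CPM of all reads of the transcript, TMM-scaled) of the 10 genes against circadian time in hours, with 1 point per mouse and a line through the mean of 2 mice. Apoa5 is highest from CT12 to CT20, Apoa2 and Apoc3 are lowest at CT12, and the replicates of CT16 lie far apart in several genes.

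Apoa2 ran to a low at CT12. Its CPM in replicates 1 and 2 were 4075 and 3933 at CT0, 4115 and 3647 at CT4, 3729 and 3370 at CT8, and 2944 and 2886 at CT12. They then stood at 4505 and 3179 at CT16, 4072 and 3853 at CT20, and 4746 and 3852 at CT24. Both CT12 libraries were below all other libraries, and CT16 replicate 2 came next. Its fitted peak was at 23.3 h (standard error 1.28 h), with a peak-to-trough difference of 0.39 ± 0.12 and an adjusted p of 0.129 (edgeR), which misses the threshold. Without CT16 replicate 1 the adjusted p was 0.0198, and without both CT16 libraries 0.0339. Without both CT12 libraries, edgeR's fitted swing went from 0.39 to 0.23 and the adjusted p was 0.661.

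Apoc3 had a similar course. Its best-covered transcript stood at 934 and 824 CPM at CT0, 802 and 700.0 at CT4, 656 and 678 at CT8, and 493 and 621 at CT12. The later values were 940 and 552 at CT16, 768 and 756 at CT20, and 770 and 668 at CT24. The lowest library was CT12 replicate 1 and the next CT16 replicate 2, whereas CT16 replicate 1 was the highest of all. The phase was 23.3 h (standard error 1.68 h), the peak-to-trough difference 0.42 ± 0.16 and the adjusted p 0.202 (edgeR). It was 0.0228 without CT16 replicate 1. In the other direction, edgeR's fitted swing of 0.41 was 0.30 without CT12 replicate 1 (adjusted p = 0.470) and 0.25 without both CT12 libraries (adjusted p = 0.708). Over the 14 libraries, Pearson's r of log2 CPM between Apoa2 and Apoc3 was 0.83, given as a description of libraries that share these deviations.

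Apoe was highest at CT0, with 9439 and 8930 CPM in replicates 1 and 2, and had its lowest mean at CT12, with 6882 and 7453. Between these, replicates 1 and 2 gave 7491 and 7734 at CT4, 8779 and 6511 at CT8, 8394 and 7571 at CT16, 9029 and 7603 at CT20, and 8410 and 8019 at CT24. The single lowest library was CT8 replicate 2, so the groups overlapped. Its fitted peak was at 22.2 h (standard error 1.596 h), a peak-to-trough difference of 0.25 ± 0.10 and an adjusted p of 0.374 (edgeR). JTK_CYCLE gave Apoe an adjusted P of 0.0439 with TMM, the only one of the 10 genes under 0.05 by that test, which called 17.7% of all transcripts. This P is adjusted for the phases tried within a transcript and not over transcripts, so its counts are not on the footing of edgeR's.

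Apoc1, the neighbour of Apoe, differed more between mice of a time than between times. Its replicates 1 and 2 were at 793 and 1320 CPM at CT24, 1278 and 766 at CT16, 918 and 1219 at CT0, and 816 and 1095 at CT12. At CT4 and CT8 they were closer, with 1185 and 1249 and with 1062 and 1019, and CT20 had 1101 and 1310. The SD within times was 0.33 on log2 CPM, the widest of the 10 genes, against a median of 0.17 over the 2978 well-counted transcripts. The adjusted p of its cosine was 0.756 (edgeR).

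Apoa4 was the least read of the 10. In replicates 1 and 2 it had 29.8 and 36.7 CPM at CT0, 30.0 and 27.6 at CT4, 23.9 and 24.8 at CT8, and 25.6 and 28.4 at CT12. Further values were 45.0 and 22.7 at CT16, 28.9 and 31.4 at CT20, and 33.2 and 23.8 at CT24. Its highest and its lowest library were thus the 2 mice of CT16. The adjusted p of the cosine was 0.468 (edgeR). Of 10 small intestine enterocyte markers, Sis, Cdx1, Cdx2 and Alpi were at 0 counts in all libraries, Lct and Vil1 had 2 and 27 counts in all, and the summed level ran from 125 to 173 CPM, nearly all from Anpep, Apoc2 and Fabp2.

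The remaining 4 genes were close to level. Apob lay between 3954 CPM (CT0 replicate 1) and 5397 CPM (CT8 replicate 2), and its median was 4653. Both of its CT0 libraries, 3954 and 4007, were below all others, while CT24, a day later, had 4732 and 5242. Apoa1 ran from 2860 to 3760 CPM with a median of 3170, Apoh from 643 to 869 CPM with a median of 797, and Apom from 115 to 163 CPM with a median of 130. Their peak-to-trough differences were 0.14 ± 0.12 for Apob, 0.15 ± 0.08 for Apoa1, 0.07 ± 0.10 for Apoh and 0.14 ± 0.13 for Apom, each fit with its standard error. The adjusted p (edgeR) was 0.785, 0.672, 0.946 and 0.805 in that order.

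The 2 mice of CT16 differed in most of these genes. In 9 of the 10, Apom being the exception, replicate 2 was below replicate 1, with a median difference of -0.47 on log2(CPM + 1) and a range from -0.96 for Apoa4 to 0.08 for Apom. Over the 2978 well-counted transcripts the median difference of these libraries was -0.05, and 55.7% were lower in replicate 2. At the other 6 times the median difference of the 10 genes lay between -0.08 at CT8 and 0.06 at CT0. Dividing the even counts of CT16 replicate 2 by 2 left the adjusted p of Apoa5 at 0.0270 (edgeR), since scaling removes the factor. Kupffer cell, stellate cell, sinusoidal endothelium and cholangiocyte markers all had their lowest time mean at CT16, such as 125 CPM summed over 10 Kupffer cell and macrophage markers against 166 at CT24, and their part in the CT16 values was not tested.

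The scaling of libraries changes what these genes appear to do. Summed over the 10 genes, TMM-scaled CPM lay between 20290 in CT16 replicate 2 and 24524 in CT16 replicate 1, and a cosine fitted to the log2 sum had a peak-to-trough difference of 0.13. With the plain total count as denominator, the sum ran from 15464 CPM in CT12 replicate 2 to 34351 CPM in CT0 replicate 1, and the peak-to-trough difference was 0.59 with a phase of 22.6 h. The factor between both scales applies to every transcript of a library alike. Its log2 ran from -0.44 to 0.55, with a fitted swing of 0.46 that peaked at 22.4 h. The Mup share had a phase of 9.66 h. Under the total count, phases of the 10 genes gathered between 18.2 h and 23.3 h, with peak-to-trough differences from 0.33 to 0.90. With TMM, Apoa1, Apom and Apob had phases of 7.17 h, 7.89 h and 9.51 h in the same edgeR fit. Relative to the total count, 0 of the 10 genes passed edgeR's cosine test (lowest adjusted p 0.0633, Apoa2), where 8.25% of all transcripts did, and 4 of 10 passed JTK_CYCLE (Apoa2, Apoa4, Apoc3 and Apoe), where 22.2% did. Phases of the 9 genes that edgeR's cosine test did not call with TMM are descriptions only.

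**Figure D3:**
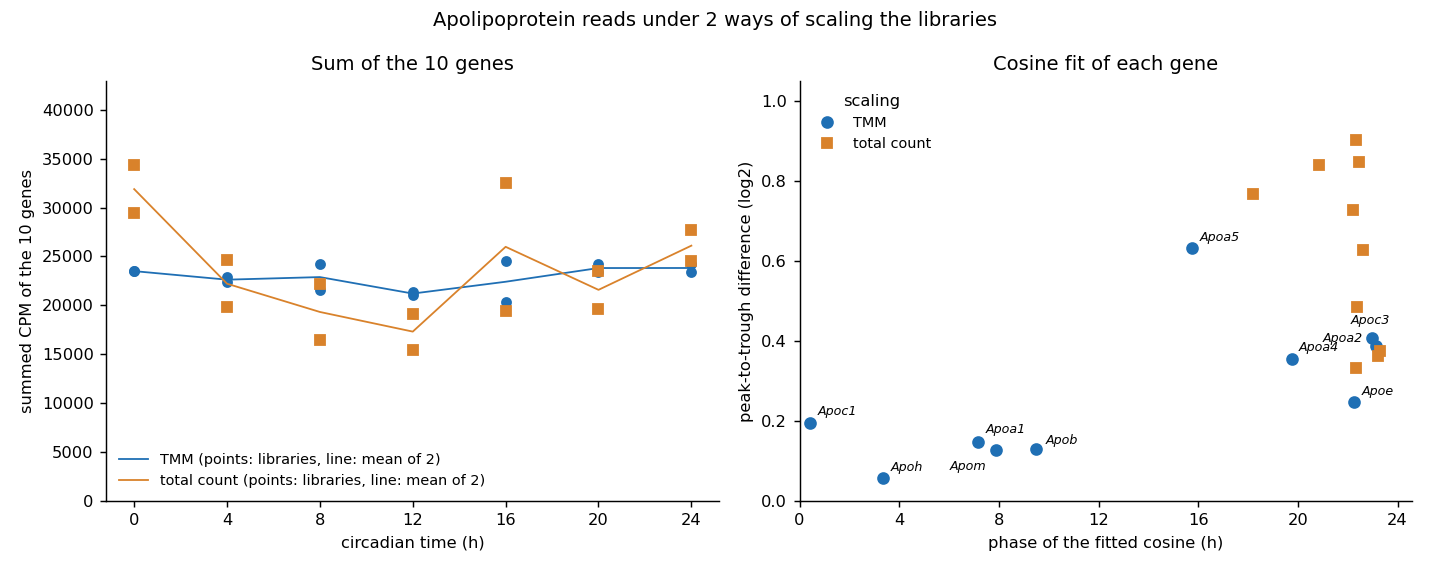
Left, CPM summed over the 10 genes against circadian time (h) with TMM (circles) and total count scaling (squares), with 1 point per library and a line through the mean of 2. Right, phase (h) and peak-to-trough difference (log2) of each gene's cosine from edgeR under both scalings, with genes named at the TMM points. The summed level is nearly level with TMM, and with the total count all 10 phases lie between 18.2 h and 23.3 h.

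The genes whose courses were most like those of Apoa5, Apoc3 and Apoa2, the 3 members with the widest fitted swing, were found by Pearson's r of log2(CPM + 1) over the 14 libraries, among 8156 other genes with a mean of at least 100 counts. For Apoa5 they were Ptp4a1 (r = 0.88), Mcoln1 (r = 0.87) and Eif4ebp3 (r = 0.87), with phases of 15.4 h, 15.3 h and 16.2 h. Eif4ebp3, an inhibitor of cap-dependent translation, ranged from 6.33 to 75.6 CPM, a far wider swing than that of Apoa5. For Apoc3 they were Ndufa11 (r = 0.93), Gm7030 (r = 0.91), a histocompatibility-like gene with close copies, and Mrps2 (r = 0.88). For Apoa2 they were Efnb1 (r = 0.90), Itga5 (r = 0.86) and Il4ra (r = 0.86), with phases of 0.10 h, 23.2 h and 23.8 h.

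The 5′UTR share, the percentage of 5′UTR and CDS reads that lay in the 5′UTR, had a median of 1.50% over the 10 genes. The median was 2.91% over 2943 well-counted transcripts (1000 counts or more on average), a comparison added after the values were seen. Over the 7640 transcripts whose 5′UTR and CDS each averaged 10 counts or more it was 9.60%, but that minimum leaves out weakly read transcripts with few 5′UTR reads and so raises the median. With the transcripts of Apoc1 and Apoc3 that rank next by reads, the median of the 10 was 2.56%. Apoa4 had the highest share among the best-covered transcripts, 12.9% ± 2.31 (SD, n = 14 libraries), from 8.79% in CT20 replicate 2 to 18.8% in CT0 replicate 2, on 3209 5′UTR reads in all. Apoa2 followed with 6.25% ± 1.66 on 200725 reads, from 3.04% in CT16 replicate 2 to 8.77% in CT16 replicate 1. Next were Apoe with 3.46% ± 0.701, Apom with 3.07% ± 0.947 and Apoc1 (NM_007469) with 2.26% ± 0.841. Below 1% were Apob with 0.747% ± 0.176, Apoh with 0.484% ± 0.156, Apoa1 with 0.350% ± 0.115, Apoa5 with 0.236% ± 0.120 and Apoc3 (NM_001289755) with 0.0940% ± 0.0417.

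Per nucleotide the order was another. Apob, whose 5′UTR of 102 nt precedes the longest CDS of the set, had 5′UTR reads per nt that differed from those of its CDS by a mean of -0.04 ± 0.34 on the log2 scale (SD, n = 14), so that both regions were about equally dense, and the 5′UTR was the denser in 5 of 14 libraries. The median of this ratio was -1.97 over the 2943 well-counted transcripts and -2.86 over the 10 genes. Apom had -0.73 ± 0.47 and Apoa4 -0.83 ± 0.29. Apoa2 had -2.32 ± 0.47 and Apoe -2.45 ± 0.29. Apoh had -3.28 ± 0.50, Apoa5 -3.73 ± 0.93, Apoc1 (NM_007469) -5.01 ± 0.50 and Apoa1 -5.57 ± 0.49. Apoc3 (NM_001289755) was lowest with -7.18 ± 1.67, and with -6.76 ± 0.51 (n = 13) without CT20 replicate 1, which had 0 reads there and -12.7 from the pseudocount of 0.5. The other Apoc3 transcripts had -2.44 (NM_023114), -3.68 (NM_001289756) and -1.29 (NM_001289833). The other Apoc1 transcript, NM_001110009, with a shorter 5′UTR of 70 nt, had -3.71 ± 0.50. Apoa1, with 127 nt of 5′UTR and no upstream ATG, thus had 0.0210 times as many reads per nt there as in its CDS, and Apoa2, with a 12-nt uORF, 0.200 times. Apoc1, with 3 upstream ATGs in NM_007469, had 0.0310 times. Among the 8 genes with matching lengths, the 3 with an upstream ATG (Apoa4, Apoa2 and Apoc1) all had a higher 5′UTR share in the transcript with most reads than the 5 without one. Apoe and Apom, left out for their lengths, have none in the annotated 5′UTR. Their shares of 3.46% and 3.07% were above the 2.26% of Apoc1, so the split does not hold with them included. The other Apoc3 transcripts, also without one, had shares from 3.32% to 16.1%. Per nucleotide the groups overlapped, since Apob, which has none, had the highest ratio and Apoc1 one of the lowest. This is a description of a few genes, with no test.

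**Figure D4:**
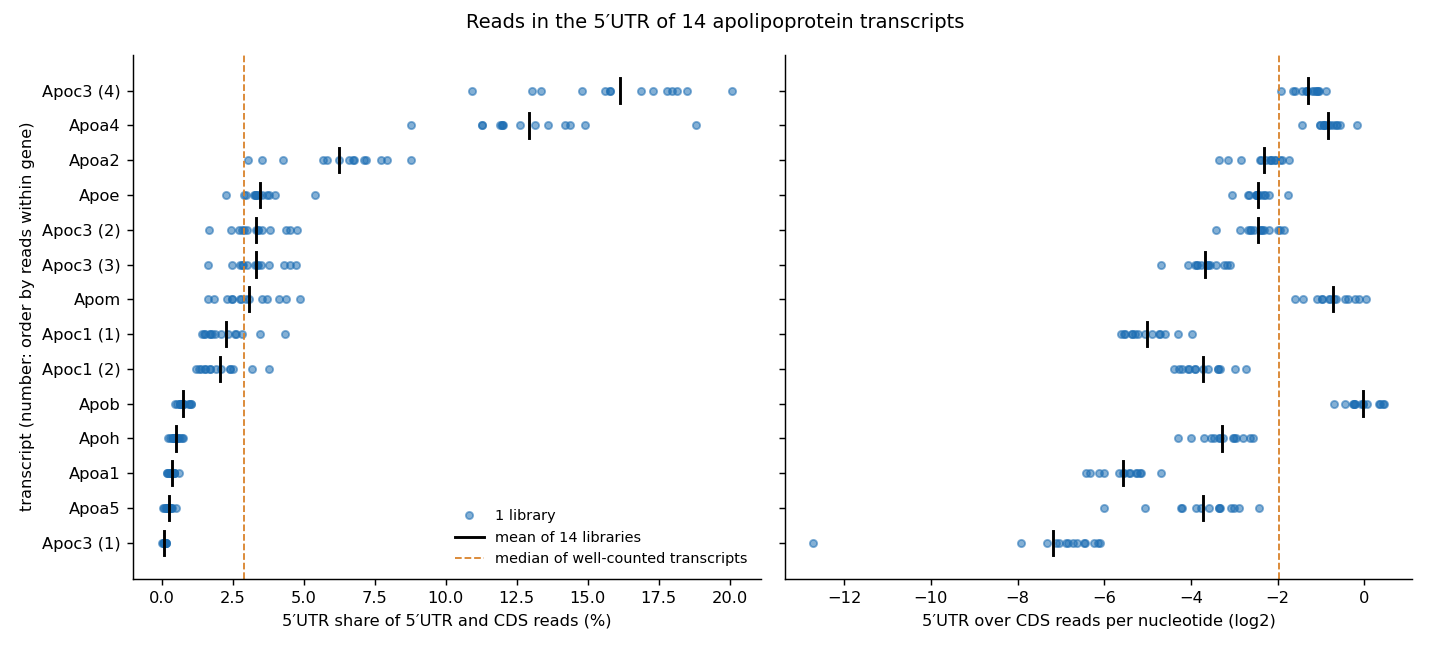
Left, the 5′UTR share of 5′UTR and CDS reads (%), and right, reads per nucleotide of the 5′UTR over those of the CDS (log2), for the 14 transcripts, with 1 point per library, a bar at the mean of 14 libraries and a dashed line at the median of the 2943 well-counted transcripts (2.91% and -1.97). Numbers in brackets order the transcripts of Apoc1 and Apoc3 by reads, and the far left point of Apoc3 (1) is CT20 replicate 1, which had 0 reads in that 5′UTR.

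The share of Apoc3 differed by transcript model. In NM_001289755 the CDS starts early, and its 44-nt 5′UTR had 588 reads in all 14 libraries, against 602037 in the CDS. In NM_023114, which starts further downstream, 20037 reads lay in a 55-nt 5′UTR, and the CDS had 22220 reads fewer. NM_001289756 shares that CDS and had 19927 5′UTR reads. NM_001289833 starts later still, within what the others count as CDS, and had 76871 5′UTR reads and a share of 16.1% ± 2.48 (SD, n = 14). The share of Apoc3 thus ran from 0.0940% to 16.1% by transcript model, and the counts do not say which transcript a read came from. For the Apoc1 transcripts, with identical CDS counts, the shares were 2.26% and 2.05%.

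The balance of 5′UTR and CDS reads was tested for a 24 h rhythm with limma on the log2 ratio with a pseudocount of 0.5. It called 0 of the 10 genes and 0% of the 7640 transcripts after adjustment, and at an unadjusted p under 0.05 it gave 2 of 10, Apoa1 and Apoa5, against 4.93% of all. Apoa1 had 0.336% and 0.375% of its reads in the 5′UTR at CT0, 0.198% and 0.311% at CT8, 0.227% and 0.246% at CT12, 0.435% and 0.184% at CT16, and 0.608% and 0.421% at CT20. Its fitted ratio peaked at 22.3 h with a peak-to-trough difference of 0.94 (unadjusted p = 0.0465, adjusted p = 0.809, limma). Apoa5 had only 925 5′UTR reads, from 9 in CT20 replicate 1 to 161 in CT12 replicate 1, and its ratio peaked at 5.75 h (unadjusted p = 0.0435, adjusted p = 0.809, limma). Reads in the 3′UTR were rare, with a mean share from 0.00666% of all reads for Apob to 0.405% for Apoc3 and a median of 0.128% over the 10 genes, against 0.146% over the 2978 well-counted transcripts.

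Other genes of lipoprotein metabolism were taken by lists and given here beside the 10. Among 15 tested of 18 other apolipoproteins and partners, 3 passed edgeR's cosine test, all of them serum amyloid A genes, which code for acute-phase proteins of high density lipoproteins. Saa4 peaked at 13.9 h and swung from peak to trough by 1.20 ± 0.22 on log2 CPM (adjusted p = 0.000563), and the near-identical Saa1 and Saa2, between which short reads are hard to place, had 1.77 ± 0.63 at 10.5 h (0.00558) and 1.88 ± 0.79 at 10.2 h (0.00833). The highest library lay far above the mean in both, with 149 against 36.4 CPM for Saa1 and 104 against 18.6 CPM for Saa2. Apoc2, the activator of lipoprotein lipase, had 59.3 CPM and an adjusted p of 0.632, and Apoc4 had 284 CPM and 0.518. Clu, at 971 CPM, had 0.763.

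In the list of lipoprotein assembly and secretion, 7 of 20 genes passed. Sort1, a sorting receptor that binds ApoB, peaked at 8.14 h and swung by 1.09 ± 0.30 (adjusted p = 0.0155, edgeR). Tm6sf2, which aids the lipidation of very low density lipoproteins, had 0.62 ± 0.14 at 20.1 h (0.0156). A1cf, the partner of the Apob mRNA editing enzyme, had 0.62 ± 0.17 at 16.7 h (0.0426). Of the genes for the coat of vesicles that leave the endoplasmic reticulum, Sec23a had its fitted peak at 13.2 h (0.00584), Sec24a at 13.3 h (0.0231) and Sec31a at 14.8 h (0.0163). Sar1a and Sar1b, for the GTPases that start this coat, did not pass (0.608 and 0.247), with phases of 14.3 h and 18.6 h. Mttp, the transfer protein that loads ApoB with lipid, did not pass, with 0.18 ± 0.07 on log2 CPM (adjusted p = 0.514).

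Of 14 lipases, lipase inhibitors and transfer proteins, 4 passed. Lpl, lipoprotein lipase itself, ranged from 4.00 to 25.8 CPM with a phase of 4.00 h and a difference of 1.76 ± 0.21 (adjusted p = 2.48e-05, edgeR). Lipg, endothelial lipase, had 1.52 ± 0.41 at 12.0 h (0.00901). The sterol transporter genes Abcg8 and Abcg5 had 1.28 ± 0.27 at 8.72 h (0.00186) and 0.88 ± 0.25 at 11.1 h (0.0169). Angptl8, an inhibitor of lipoprotein lipase, missed the cosine threshold with an adjusted p of 0.0576 over a range from 5.84 to 61.5 CPM, while its difference among the 7 times passed (adjusted p = 0.000556).

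Among 14 tested receptor genes, 3 passed. Sdc1, a heparan sulfate proteoglycan that takes up remnants, had a peak-to-trough difference of 0.93 ± 0.10 at 22.4 h (adjusted p = 0.000111, edgeR), and Lsr had 0.78 ± 0.14 at 21.6 h (0.00429).

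Of the transcription regulators of apolipoprotein genes, 9 of 24 tested passed. Nr1d1 and Nr1d2, the clock repressors REV-ERB alpha and beta, swung by 4.79 ± 0.43 at 8.50 h and by 3.22 ± 0.19 at 10.98 h (adjusted p = 2.66e-07 and 7.20e-08, edgeR). Cebpb had 1.00 ± 0.27 at 13.2 h (0.0143), Ppargc1a 0.90 ± 0.27 at 11.9 h (0.0397) and the bile acid receptor gene Nr1h4 0.80 ± 0.13 at 15.8 h (0.00295). Hnf4a, a general activator of liver apolipoprotein genes, did not pass (0.349). The shares of these 5 lists that passed, 20.0% to 37.5% of the genes tested, were above the 11.3% of all genes and the 1 of 10 of the apolipoproteins, but the lists were chosen with results known, and no test of a list was made. The median peak-to-trough difference of the lists ran from 0.27 for other apolipoproteins to 0.53 for the transcription regulators, against 0.29 over all 11655 genes.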

How the data were processed

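The authors deposited, for each library, raw read counts per RefSeq transcript for its untranslated and coding regions, with their lengths. The submitters' processing notes name FastQC, Bowtie2 2.1.0.0 and SAMtools 0.1.19.0 and the build mm10. The methods describe reads with an exact match at 1 genomic location, assigned to the nucleotide at the ribosomal A site, so reads that match several gene copies may be missing. How reads shared by transcripts of 1 gene were counted is not stated in the sources used here. In the counts, both Apoc1 transcripts had 883781 CDS reads, and all 4 Apoc3 transcripts had 2435 3′UTR reads. Reads of shared regions thus stand in the counts of each transcript. Total counts and shares of them are sums over transcripts, in which a read can count more than once. The last 2 libraries have both CT00 and CT24 in their names and were taken as CT24. A label places the processed data of a second run of CT16 replicate 2 in that library's counts. Gene names came from RefSeq and, for 116 transcripts, GENCODE tables (27956 of 28167 named).

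Counts of the 3 regions were added per transcript. A 24 h cosine and a factor of 7 times were tested with edgeR 4.0.16 in R 4.3.3 (quasi-likelihood, TMM, Benjamini-Hochberg over all transcripts that averaged 10 counts or more). Counts of 5′UTR over CDS (log2) were tested with limma 3.58.1. Phases and peak-to-trough differences with standard errors are from least-squares fits to log2(CPM + 1). DESeq2 1.42.0 and JTK_CYCLE, rewritten in Python 3.11.15 with numpy 2.4.6, were alternatives, the latter with P adjusted for phases within a transcript only. All were tested on simulated data. With 2 mice per time, the test among the 7 times sets differences against the spread between mice of a time, which includes counting error. In the cosine fits of edgeR and limma, that spread also holds departures of the times from a cosine. Both methods draw the spread of each transcript towards that of the others.

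A gene is shown by its transcript with most reads. From each list, genes past the edgeR threshold were named, at most the 6 with the largest peak-to-trough difference, with some others chosen after their values were seen. Some genes of the lists are counted but not reported here by name. The members and lists were chosen with earlier results of these data known. Sequences were read with samtools from GRCm38.p6.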

Additional observations from a re-analysis of the deposited data

How the results depend on the processing

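The count of 1 rhythmic apolipoprotein gene (edgeR) stayed at 1 under DESeq2 size factors, upper quartile, total counts without Mup, the sum of the 10 genes as scale, filters at 1 and 100 counts, counts of the CDS alone, a table with 1 transcript for each gene, DESeq2's test and JTK_CYCLE with TMM, where the gene was Apoe and no longer Apoa5. It was 0 with the total count and 4 by JTK_CYCLE with the total count. With CT0, CT4, CT8, CT12, CT20 or CT24 left out it was 0, and without CT16 it was 2. Leaving out 1 library gave 0 to 2. Over the settings other than single libraries, the adjusted p of Apoa5 ran from 0.00386 to 0.139, and its cosine passed in 12 of 21. The cause of these losses was not tested. The count that differs among times was 0, but 1 with the total count (Apoc3, adjusted p = 0.0329, edgeR), and 0 to 1 with 1 library left out. The 5′UTR to CDS ratio gave 0 in every setting run, 0 to 0 with 1 library left out. The number of neighbour pairs in order, 7, was also 7 with the transcripts that rank next by reads. Order is compared within a library, so the total count and total counts without Mup could not change this number. Leaving out 1 library could not change it either. The median 5′UTR share, 1.50%, was 2.56% with the transcripts that rank next by reads (Apoc1 and Apoc3), and 1.43% to 1.54% with 1 library left out. With the replicate number as a block (replicate block), the counts were 1, 0 and 0, and the adjusted p of Apoa5 was 0.0352. Deviations of same-numbered mice correlated from -0.12 to 0.30 (median 0.03). Whether same-numbered mice shared a batch was not tested. Over all transcripts, cosine calls were 1947, but 3840 and 3068 by JTK_CYCLE with the total count and TMM, and 1059 and 1157 without CT12 and without CT8. Calls among times were 1225, and 2197 with the total count. Counts behind the 5′UTR values were low for Apoa5 (925 reads in all) and for Apoc3 NM_001289755 (588).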
